A study of Mus musculus with 32 samples.

Results

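Histones are the proteins around which nuclear DNA is wrapped, and the genes described here are all those in an RNA-seq table of mouse prostate and urogenital tissue whose symbol begins with Hist1, Hist2, Hist3, Hist4, H1f, H2af or H3f. The rule found 26 of the 13780 genes in the table. Of these, 16 are clustered histone genes (Hist1h1c, Hist1h2bc, Hist1h2bg, Hist1h2bk, Hist1h4h, Hist1h4i, Hist1h4k, Hist1h4m, Hist2h2aa1, Hist2h2aa2, Hist2h2be, Hist2h3c1, Hist2h3c2, Hist3h2a, Hist3h2ba and Hist4h4). The other 10 are variant genes, named apart from the cluster genes (H1f0, H1fx, H2afj, H2afv, H2afx, H2afy, H2afy2, H2afz, H3f3a and H3f3b). The same rule names 82 protein-coding genes in the GENCODE M21 mouse annotation, 67 clustered and 15 variant, and the histone genes of that annotation with no row in the table were not analysed here.

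The clustered genes supply the bulk of new histones when DNA is copied. Most have no introns, their transcription is tied to S phase, and their messenger RNA normally ends in a short stem-loop, bound by the protein SLBP, in place of a poly(A) tail. Most variant genes give ordinary polyadenylated transcripts throughout the cell cycle and let chromatin be rebuilt outside S phase. Some clustered genes also give polyadenylated transcripts in cells that have stopped dividing.

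All animals were C57/BL6 mice. Adult males of the T+E2 group had carried implants of testosterone (25 mg) and oestrogen (2.5 mg) under the skin for 2 weeks, a combination used to model benign prostatic hyperplasia, and untreated males were their controls. Anterior prostate (AP), dorsolateral prostate (DLP) and prostatic urethra were taken from both. The urogenital sinus (UGS), from which the prostate develops, was dissected from male embryos at E16.5 and cultured with testosterone for 6 days, or cultured without hormone. The labels do not give the time of culture without hormone. Each of these 8 groups had 4 libraries, 32 in all. The labels do not say whether libraries of a group came from separate animals, so p-values measure the spread between libraries. In the adult T+E2 groups both hormones were always given together.

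Values are TPM, relative transcript abundances that are scaled for transcript length and sum to nearly the same total in each library (994133 to 997961 TPM), and the sequencing depth behind them is unknown. A gene was tested in a comparison where it reached 1 TPM in at least 4 of its libraries. Differences are given as log2 of (TPM + 1), which understates changes of low genes, with the standard error (SE) of limma's fit across all genes, and a gene was called higher or lower at an adjusted p under 0.05 (Benjamini-Hochberg over all genes tested). In bulk tissue, fewer cells of a type and less RNA per cell cannot be told apart. Whether polyadenylated RNA was selected is not given in the sources used here. If it was, clustered messages that end in the stem-loop without a poly(A) tail would be largely missed. The 5 prostate secretory markers made up 5.13% to 5.95% of TPM in untreated AP and 5.10% to 9.92% in untreated DLP, and summed to at most 41.0 TPM in the UGS. The 8 seminal vesicle markers took 15.3% to 26.7% of TPM in the T+E2 DLP and 17.3% to 23.7% in the untreated DLP, and were uneven in AP, at 9.94% and 7.23% in T+E2 libraries 17 and 18 and 5.43% in untreated library 9, against at most 0.199% in the other AP libraries. The urethra also held skeletal muscle, whose 10 markers took 5.45% to 7.29% of TPM after T+E2 and 4.43% to 5.22% in untreated mice.

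The stem-loop that sets clustered histone transcripts apart was looked for in the GENCODE M21 transcripts (GRCm38) as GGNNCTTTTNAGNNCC on the transcript strand, where N is any base. It was present in 13 of the 16 clustered members, Hist1h2bc, Hist1h4k and Hist2h2be being without a match, and in 1 of the 10 variants, H2afx. The transcript used for Hist1h4k has 312 bases, 309 of them coding, so it leaves no room for a stem-loop past the coding sequence. Over the whole annotation it occurred in 89 of 55341 genes (0.161%). It began 28 to 62 bases past the end of the coding sequence, and the annotated transcripts ran 3 to 2445 bases beyond it. The stem-loops of genes that lead the results are printed with the motif in capitals, and H2afx is shown as the only variant that had one.
Hist1h1c: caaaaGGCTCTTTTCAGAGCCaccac
Hist2h2aa1: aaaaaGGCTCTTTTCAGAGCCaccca
Hist2h2aa2: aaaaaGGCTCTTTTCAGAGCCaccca
Hist2h3c1: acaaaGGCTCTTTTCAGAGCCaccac
Hist1h4h: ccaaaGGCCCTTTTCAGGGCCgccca
H2afx: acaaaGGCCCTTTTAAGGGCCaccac

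Several members are near-identical copies, and reads from them cannot be assigned to one gene with certainty. Hist2h2aa1 and Hist2h2aa2, which encode the core histone H2A, have coding sequences of 390 bases with 0 differences, and 89.2% of the 50-base windows of Hist2h2aa1 and 100% of those of Hist2h2aa2 occur in the other. Hist2h3c1 and Hist2h3c2, which encode H3.2, also have 0 differences over 408 coding bases, and share 34.8% and 63.5% of their windows. Hist1h4h and Hist1h4k encode H4 with 14 differences over 309 bases, and share 38.7% and 62% of their windows. These 3 pairs are therefore also given summed.

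The identity of the Hist2 copies extends into their promoters. Windows from 250 bases before to 50 bases after each start were taken from RefSeq (GRCm38.p6), which held 23 of the 26 members. Those of Hist2h2aa1 (chr3:96245247-96245546, plus strand) and Hist2h2aa2 (chr3:96240325-96240624, minus strand) lie 4622 bases apart and share an identical stretch of 219 bases, in capitals, that begins 209 bases before the start of Hist2h2aa1 and 169 bases before that of Hist2h2aa2. The windows of Hist2h3c1 and Hist2h3c2 share 231 bases, and those of Hist1h4h and Hist1h4k at most 9. The stretch of 219 bases reaches the last base of the Hist2h2aa2 window, and that of 231 bases starts at the first base of the Hist2h3c2 window. Both lengths are therefore lower limits set by the windows.
Hist2h2aa1: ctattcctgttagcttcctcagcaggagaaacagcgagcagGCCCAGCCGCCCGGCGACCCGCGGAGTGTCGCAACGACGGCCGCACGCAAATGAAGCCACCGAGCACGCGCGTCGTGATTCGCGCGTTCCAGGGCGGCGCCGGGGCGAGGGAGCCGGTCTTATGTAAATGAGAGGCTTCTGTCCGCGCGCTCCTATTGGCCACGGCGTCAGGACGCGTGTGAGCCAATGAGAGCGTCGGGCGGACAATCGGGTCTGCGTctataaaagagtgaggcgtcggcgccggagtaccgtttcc
Hist2h2aa2: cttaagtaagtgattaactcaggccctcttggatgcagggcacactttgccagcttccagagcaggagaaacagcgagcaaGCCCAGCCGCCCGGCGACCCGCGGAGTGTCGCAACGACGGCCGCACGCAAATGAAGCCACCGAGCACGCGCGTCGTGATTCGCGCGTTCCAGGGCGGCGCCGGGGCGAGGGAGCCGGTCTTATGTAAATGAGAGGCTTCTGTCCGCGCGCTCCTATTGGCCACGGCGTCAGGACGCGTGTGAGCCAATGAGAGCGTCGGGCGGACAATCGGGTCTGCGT

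Both promoter windows that follow belong to members that moved in opposite directions in AP, the linker histone gene Hist1h1c (chr13:23738557-23738856, plus strand) and the variant gene H2afz (chr3:137864237-137864536, plus strand). Capitals mark CCAAT, or its reverse complement ATTGG, which occurred 1 time in the first and 3 times in the second.
Hist1h1c: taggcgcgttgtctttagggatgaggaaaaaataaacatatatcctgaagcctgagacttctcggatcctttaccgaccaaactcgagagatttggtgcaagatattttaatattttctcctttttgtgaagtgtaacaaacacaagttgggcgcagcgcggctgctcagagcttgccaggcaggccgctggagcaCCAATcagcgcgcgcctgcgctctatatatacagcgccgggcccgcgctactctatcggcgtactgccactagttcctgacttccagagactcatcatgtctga
H2afz: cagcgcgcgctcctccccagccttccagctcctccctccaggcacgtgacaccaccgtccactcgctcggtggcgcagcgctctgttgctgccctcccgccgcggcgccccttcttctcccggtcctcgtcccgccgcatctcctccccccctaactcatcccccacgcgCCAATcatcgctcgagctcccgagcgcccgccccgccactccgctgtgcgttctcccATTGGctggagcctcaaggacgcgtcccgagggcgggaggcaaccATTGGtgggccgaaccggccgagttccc
Searched on both strands, CCAAT was in the window of 9 of 14 clustered members and 6 of 9 variants, against 37.4% of 32851 promoters. TATAAA was in 7 of 14 clustered members and 1 of 9 variants, against 13.6% of promoters. In Hist2h2aa1 it lies just past the stretch shared with Hist2h2aa2, whose window ends with that stretch. The octamer ATGCAAAT was in 3 of 14 and 1 of 9, against 1.74%, and the E2F sequence TTTCCCGC was in none of either, against 1.07%. A match describes these letters only.

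After T+E2, transcripts of clustered histone genes were more abundant in both prostate lobes, while the summed variants were not, although single variants moved. The 16 clustered members summed to 1155 ± 90.3 TPM in T+E2 AP and 468 ± 17.1 TPM in untreated AP (SD, n = 4 libraries each), a ratio of 2.47, and to 699 ± 34.3 TPM in T+E2 DLP and 400 ± 34.9 TPM in untreated DLP, a ratio of 1.75. In neither lobe did the T+E2 and untreated libraries overlap. The sums of the 10 variants overlapped, at 1923 ± 65.6 TPM and 1866 ± 51.6 TPM in T+E2 and untreated AP and 1642 ± 60.8 TPM and 1619 ± 128 TPM in T+E2 and untreated DLP. The AP sum joined opposite changes. H3f3a and H3f3b together were higher, at 1272 to 1336 TPM after T+E2 and 1052 to 1120 TPM in untreated AP, and H2afz was lower. By gene, 4 of 10 variants were called higher and 1 lower in AP, against 21.6% and 12.9% of all genes. In DLP 3 were higher and 0 lower, against 6.09% and 4.63%.

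**Figure D1:**
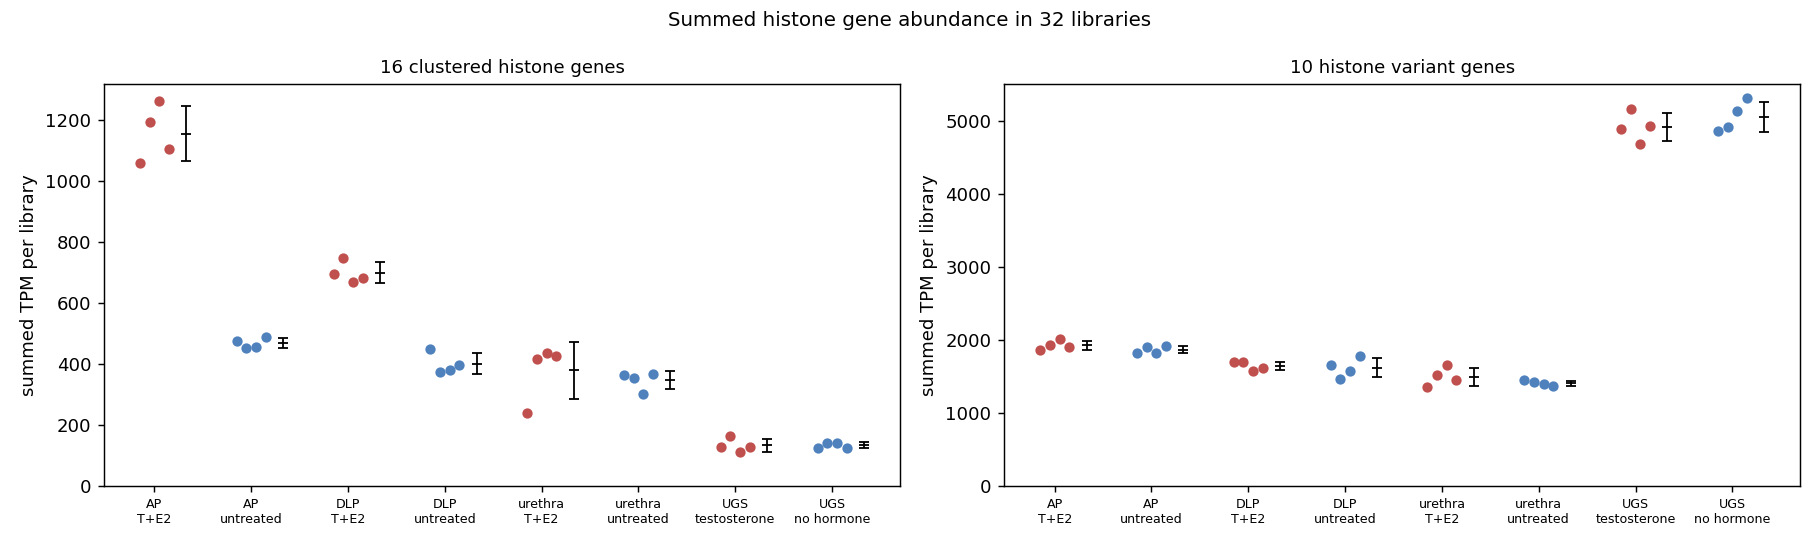
Summed TPM of the 16 clustered histone genes and of the 10 variants in each of the 32 libraries, by tissue and treatment; points are libraries, and bars are means with SD (n = 4). The clustered sum was 2.47 times as high in T+E2 AP as in untreated AP and 1.75 times as high in T+E2 DLP as in untreated DLP, while T+E2 and untreated variant sums overlapped in all adult tissues.

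A few genes carried the clustered sum. Hist1h1c, Hist1h2bc and Hist2h2aa1 together made up 78.6% ± 2.66 of it in T+E2 AP and 73.9% ± 3.06 in untreated AP, and 78.2% ± 1.28 in T+E2 DLP and 80.5% ± 2.32 in untreated DLP. By histone type in AP, clustered H2A summed to 502 TPM after T+E2 and 237 TPM in untreated mice, H2B to 328 and 131 TPM, H3 to 56.9 and 26.4 TPM, and H4 to 39.7 and 16.54 TPM. Clustered transcripts of every histone type were thus higher on average in T+E2 AP.

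In AP, 16 of the 26 histone genes were higher after T+E2, 1 was lower, 8 did not pass the test and Hist1h2bk was too low to test, against 34.5% of all genes called in AP (21.6% higher and 12.9% lower). Of the clustered genes 12 were higher and none lower. In 14 of the 25 tested the T+E2 and untreated libraries did not overlap, 13 being higher and 1 lower after T+E2, compared with 34.4% of all genes. The median difference was 1.11 over the tested clustered genes, 0.23 over the variants and 0.07 over all genes. With libraries scaled by the median of gene ratios, all genes called split into 2169 higher and 2300 lower, against 2706 and 1617 on the deposited scale, and the histone genes into 13 higher and 1 lower.

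On the log2 (TPM + 1) scale, the largest rise among the histone genes in AP was that of the linker histone gene Hist1h1c, whose protein binds the DNA between nucleosomes. It stood at 195, 242, 235 and 245 TPM in the T+E2 libraries, against 51.5, 54.7, 50.9 and 71.8 TPM in the untreated ones. The groups were far apart, and the difference was 1.99 ± 0.12 (limma, adjusted p = 5.84e-07). Hist1h2bc, one of the genes for the core histone H2B, had 305, 313, 287 and 295 TPM in T+E2 AP, against 113, 114, 100 and 122 TPM in untreated AP. Every T+E2 library lay above every untreated one, and the difference was 1.41 ± 0.07 (adjusted p = 1.87e-07). Its coding sequence is shared in 50-base windows with many other H2B genes, at 97.6% of windows, so part of its value may be theirs. A lower H2B gene, Hist1h2bg, had 7.53, 6.98, 8.02 and 12.04 TPM in T+E2 AP and 3.17, 2.57, 2.99 and 2.72 TPM in untreated AP. The difference was 1.29 ± 0.15. Every gene in the table had a mean of at least 4.998 TPM in 1 or more of the 8 groups. A gene this low in untreated AP may have a row only through T+E2 AP. The difference of Hist1h2bg is thus described and not a test, although the counts above include it.

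Among the H2A genes, Hist2h2aa1 had 316, 373, 450 and 374 TPM in T+E2 AP, against 182, 170, 170 and 186 TPM in untreated AP, a difference of 1.08 ± 0.10 (limma, adjusted p = 1.40e-05). Its copy Hist2h2aa2 had 104, 108, 133 and 35.5 TPM in T+E2 AP, against 41.8, 31.3, 52.6 and 26.5 TPM in untreated AP. The groups of the copy overlapped, and its call was lost when any 1 of 5 libraries was left out (adjusted p of up to 0.0750). Summed, the pair gave 473 ± 79.7 TPM in T+E2 AP and 215 ± 10.5 TPM in untreated AP, a difference of 1.12 ± 0.11 (adjusted p = 2.02e-05). Hist3h2a, an H2A gene of a separate cluster, differed by 0.34 ± 0.09 (adjusted p = 0.0104).

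The H3 gene Hist2h3c1 varied little between libraries of a group. It had 45.3, 46.1, 46.1 and 46.8 TPM in T+E2 AP, against 18.7, 22.4, 22.2 and 20.3 TPM in untreated AP. The difference was 1.11 ± 0.07 (limma, adjusted p = 1.31e-06), and that of its copy Hist2h3c2 was 0.87 ± 0.10 (adjusted p = 0.000113). The H4 genes were low and more variable. Hist1h4h had 10.1, 16.1, 7.59 and 9.89 TPM in T+E2 AP and 2.30, 3.57, 0.79 and 3.04 TPM in untreated AP, a difference of 1.84 ± 0.29 (adjusted p = 0.000704) between groups that did not overlap. Hist1h4i (1.17 ± 0.38, adjusted p = 0.0349) and Hist1h4k (1.47 ± 0.50, adjusted p = 0.0426) were also higher, but each lost its call without any 1 of 3 or 4 libraries, with adjusted p of up to 0.0708 and 0.112. Hist1h4m, at 10.6 ± 2.18 TPM after T+E2 and 6.10 ± 3.79 TPM in untreated AP (SD, n = 4), did not pass (adjusted p = 0.0935). The H2B gene Hist3h2ba (0.89 ± 0.31, adjusted p = 0.0452) was a further call that 6 of the fits leaving out 1 library did not keep, with adjusted p of up to 0.118.

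**Figure D2:**
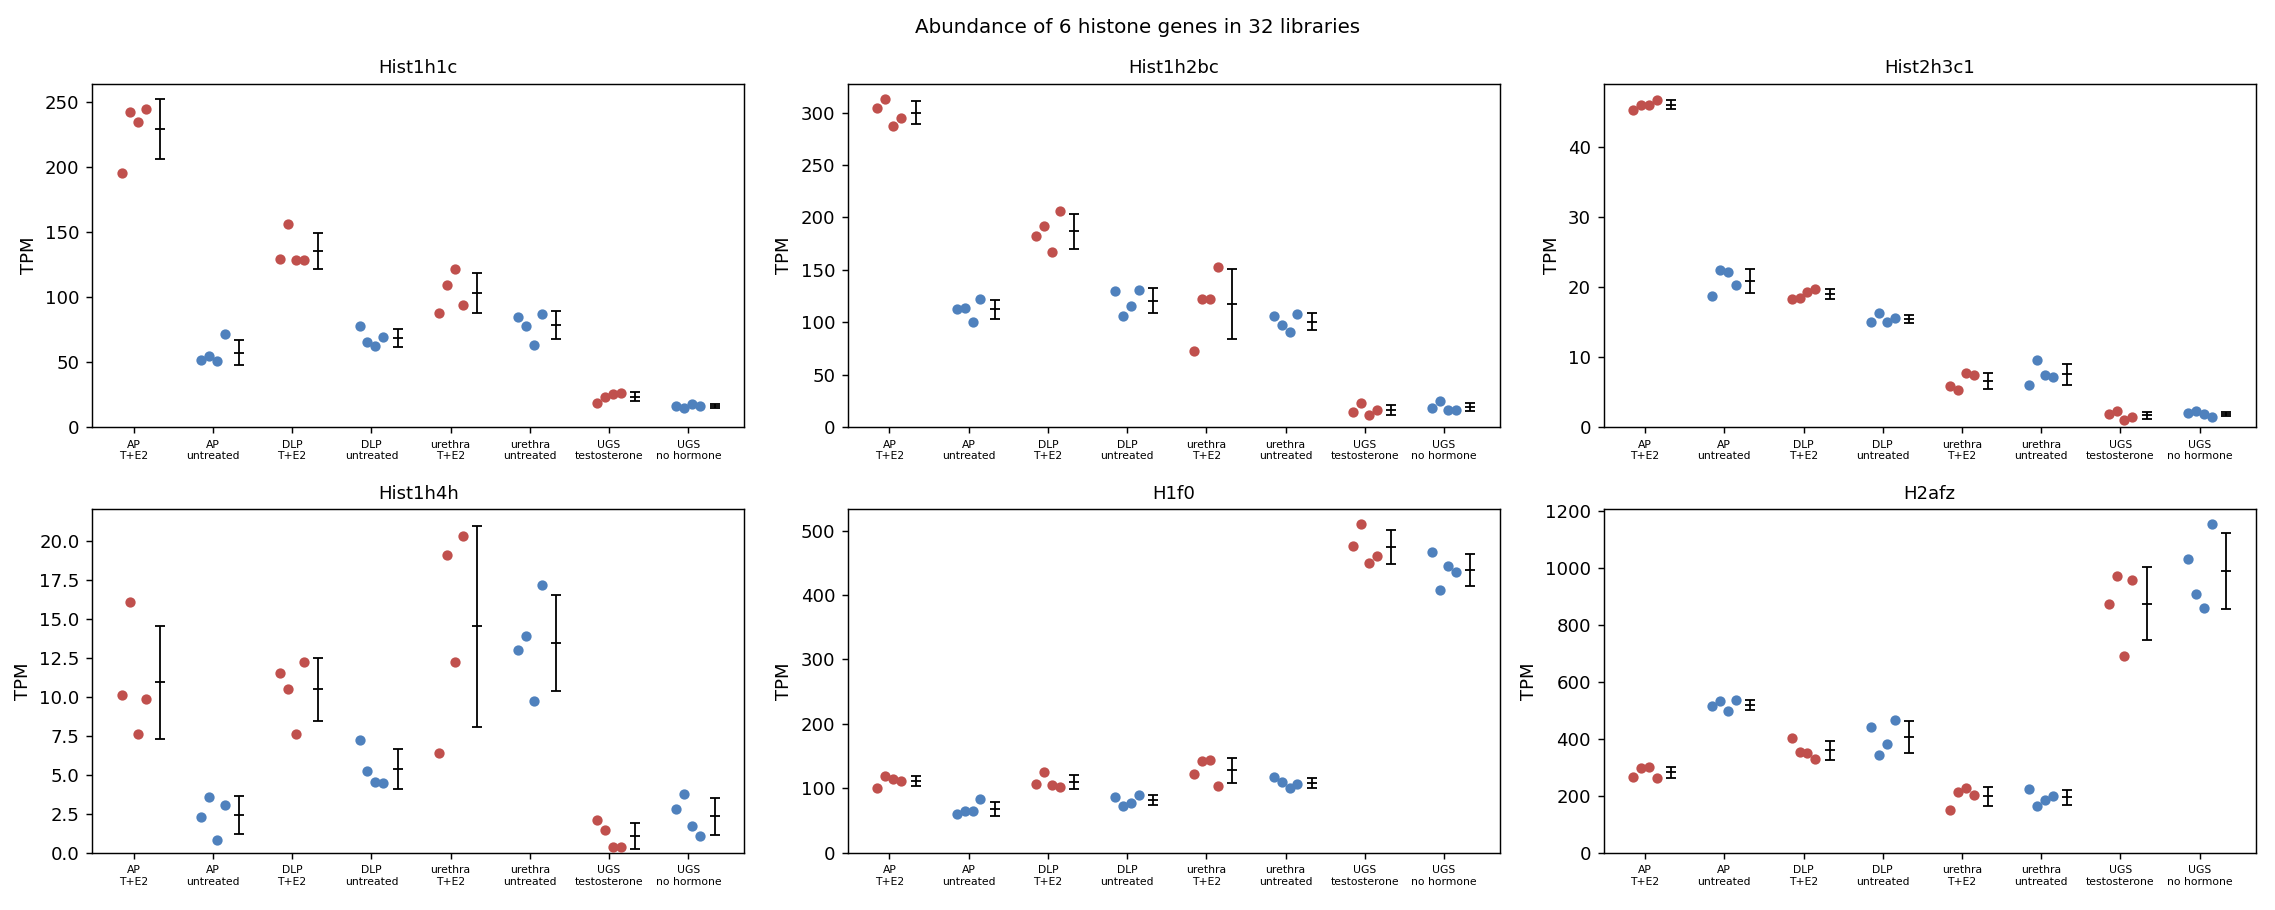
TPM of Hist1h1c, Hist1h2bc, Hist2h3c1, Hist1h4h, H1f0 and H2afz in each library by tissue and treatment; points are libraries and bars are means with SD (n = 4). The 5 genes other than H2afz were higher in T+E2 AP and DLP than in the untreated lobes, and H2afz was lower in T+E2 AP, at 281 TPM against 519 TPM.

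Of the 10 variants in AP, 4 were higher, 1 was lower and 5 did not pass. H2afz, the main gene for H2A.Z, a variant placed at promoters and regulatory regions, was the single histone gene that fell. It had 267, 299, 300 and 260 TPM in T+E2 AP, against 514, 532, 496 and 534 TPM in untreated AP, a difference of -0.88 ± 0.07 (limma, adjusted p = 4.76e-06). No T+E2 library came near an untreated one, and H2afz made up 14.6% ± 0.759 of the variant sum after T+E2 and 27.8% ± 0.369 in untreated AP. All 50-base windows of its coding sequence also occur in other annotated genes, Gm8203 among them.

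The linker variant gene H1f0, known for its expression in cells that have left the cell cycle, had 100, 118, 114 and 112 TPM in T+E2 AP and 59.3, 63.9, 64.5 and 83.5 TPM in untreated AP, a difference of 0.71 ± 0.10 (limma, adjusted p = 0.000422). H1fx, another linker variant, was also higher, by 1.02 ± 0.19 (adjusted p = 0.00196). All 3 linker genes in the table were thus higher in T+E2 AP. H3f3a and H3f3b, which encode the same replacement histone H3.3, differed by 0.31 ± 0.06 (adjusted p = 0.00266) and 0.21 ± 0.06 (adjusted p = 0.0258), and H3f3b lost its call in 4 of the fits leaving out 1 library. H2afj (adjusted p = 0.0622), H2afv, H2afx and the macroH2A genes H2afy and H2afy2 did not pass.

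Of the calls in AP, 11 higher and 1 lower were kept whichever library was left out. Without the 3 AP libraries rich in seminal vesicle transcripts, 13 histone genes were higher and 1 lower, Hist1h1c at 2.17 and H2afz at -0.88 among them, and Hist1h4i, Hist1h4k and Hist2h2aa2 no longer passed.

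In DLP the median change was smaller than in AP and fewer genes were called. There 9 of the 26 histone genes were higher after T+E2 and 1 was lower, 15 did not pass the test and Hist1h2bk was not tested, against 10.7% of all genes called in DLP (6.09% higher and 4.63% lower). Of the 9, 8 were also higher in AP. In 11 of 25 the T+E2 and untreated libraries did not overlap, compared with 16.3% of all genes. The median difference was 0.43 over the tested clustered genes, 0.11 over the variants and 0.02 over all genes.

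Hist1h1c had 156, 130, 128 and 128 TPM in T+E2 DLP, against 77.8, 65.5, 62.0 and 69.0 TPM in untreated DLP, a difference of 0.97 ± 0.09 (limma, adjusted p = 7.43e-05). Hist1h2bc had 192, 182, 207 and 167 TPM in T+E2 DLP, against 130, 106, 115 and 131 TPM in untreated DLP, a difference of 0.63 ± 0.09 (adjusted p = 0.00135). In both genes every T+E2 library was above every untreated one. Hist1h4h was higher by 0.85 ± 0.16 (adjusted p = 0.00750) and Hist2h3c1 by 0.28 ± 0.06 (adjusted p = 0.0190), the second call being lost when T+E2 library 24 or 2 or untreated library 10 was left out (adjusted p of up to 0.0656).

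The copies of the H2A pair moved unevenly in DLP. Hist2h2aa1 had 224, 232, 209 and 231 TPM in T+E2 DLP, against 161, 119, 123 and 129 TPM in untreated DLP, a difference of 0.75 ± 0.09 (limma, adjusted p = 0.000561). Hist2h2aa2 had 77.2, 55.3, 49.5 and 55.6 TPM in T+E2 DLP, while untreated DLP libraries were listed at 0, 4.80, 3.58 and 0 TPM. The fitted difference of the copy was 4.71 ± 0.54 (adjusted p = 0.000311). As a share of the pair, Hist2h2aa2 took 20.9% ± 3.17 in T+E2 DLP and 1.67% ± 1.98 in untreated DLP, but 19.7% ± 7.39 in T+E2 AP and 17.6% ± 4.77 in untreated AP, and from 0% to 29.5% among T+E2 urethra libraries and 7.03% to 25.1% among untreated ones. The sum of the pair, which depends less on how reads were divided between the copies, was 283 ± 18.0 TPM in T+E2 DLP and 135 ± 17.2 TPM in untreated DLP, a difference of 1.07 ± 0.09 (adjusted p = 4.12e-05).

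**Figure D3:**
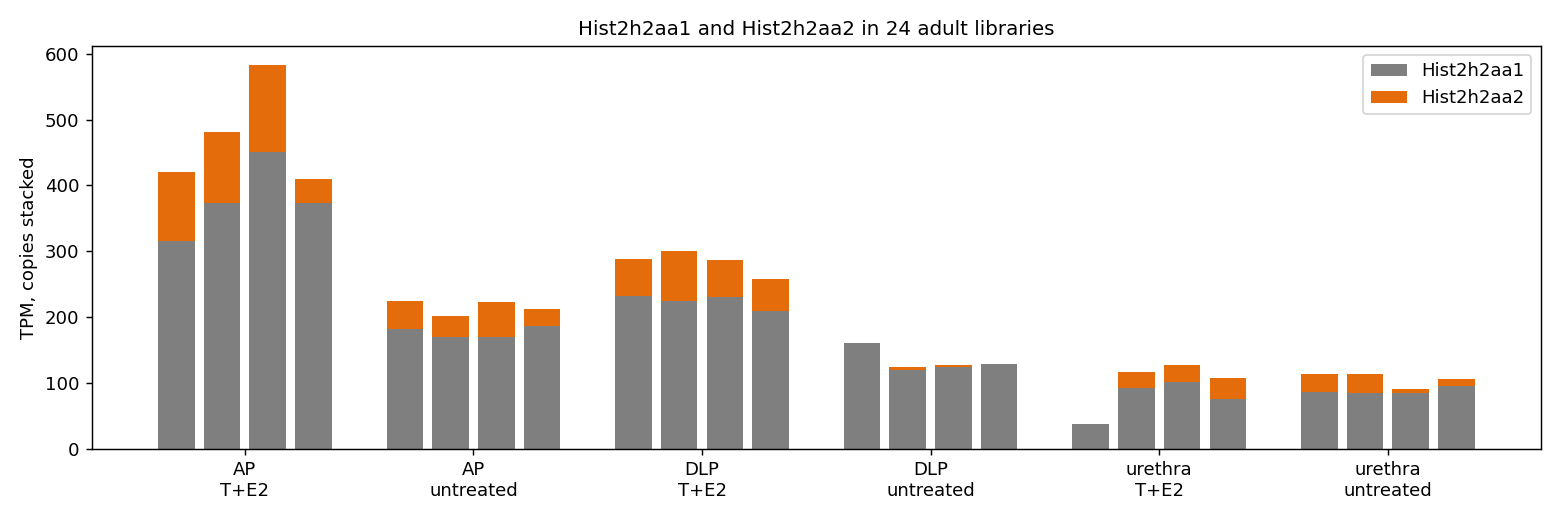
TPM of the near-identical copies Hist2h2aa1 (grey) and Hist2h2aa2 (orange), stacked, in each adult library. In untreated DLP the orange part was at most 4.80 TPM, against 49.5 to 77.2 TPM in T+E2 DLP, and it was at 0 in T+E2 urethra library 1.

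Among the variants in DLP, the linker gene H1f0 had 125, 106, 101 and 105 TPM after T+E2 and 86.4, 73.1, 76.8 and 89.7 TPM in untreated mice, a difference of 0.42 ± 0.09 (limma, adjusted p = 0.0138). H1fx differed by 0.64 ± 0.13 (adjusted p = 0.0108), so that all 3 linker genes were higher in both lobes. H2afj, which encodes an H2A variant, was higher at 58.5, 52.6, 42.4 and 53.8 TPM in T+E2 DLP, against 36.3, 29.2, 32.6 and 37.7 TPM in untreated DLP (0.59 ± 0.11, adjusted p = 0.00616). H2afz, at 358 ± 32 TPM in T+E2 DLP and 407 ± 56.3 TPM in untreated DLP (SD, n = 4), did not pass. The single lower gene was Hist2h2be, an H2B gene without a stem-loop match, at 9.09, 10.4, 9.43 and 9.26 TPM in T+E2 DLP and 13.3, 11.2, 12.5 and 12.1 TPM in untreated DLP (-0.33 ± 0.08, adjusted p = 0.0236), and its call was lost in 6 of the fits leaving out 1 library (adjusted p of up to 0.0792).

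T+E2 DLP libraries 24 and 18 held more skeletal muscle transcripts than the untreated ones, at 0.250% and 0.229% of TPM against at most 0.0762%. Without both, 6 histone genes were higher and none lower in DLP, with 717 of all genes called against 1405 with every library, and H1f0, Hist1h4h, Hist2h2be and Hist2h3c1 no longer passed, with adjusted p of 0.0744, 0.0703, 0.194 and 0.159.

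Other cell type markers moved with the histone genes in both lobes, and their part in the differences was not tested. Of all genes, 34.5% were called in AP (21.6% higher and 12.9% lower) and 10.7% in DLP (6.09% higher and 4.63% lower). In AP, 3 of 4 tested urothelial markers were higher, and their list summed to 838 to 1334 TPM after T+E2 and 234 to 269 TPM in untreated mice. Of the 5 prostate secretory markers 3 were lower and 1 higher in AP, with sums of 14185 to 19393 TPM after T+E2 and 51193 to 59343 TPM in untreated mice. In DLP, 3 of 5 urothelial markers were higher, with sums of 681 to 843 TPM after T+E2 and 293 to 305 TPM in untreated mice. Leukocyte markers were lower in 4 and higher in 1 of 7 in AP, summing to 793 to 1317 TPM after T+E2 and 559 to 1042 TPM in untreated mice, and lower in 3 of 7 in DLP, summing to 1987 to 2848 TPM after T+E2 and 2186 to 2989 TPM in untreated mice. In AP, 3 of 5 smooth muscle markers were lower (2770 to 3749 TPM after T+E2, 3377 to 4597 TPM in untreated mice), 2 of 4 luminal markers were lower (1484 to 1638 TPM after T+E2, 1673 to 1829 TPM in untreated mice), and 3 of 6 fibroblast markers were higher (849 to 865 TPM after T+E2, 740 to 841 TPM in untreated mice). Of 4 basal markers in AP, 2 were higher and 1 was lower (272 to 336 TPM after T+E2, 222 to 293 TPM in untreated mice).

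Genes of DNA replication and division differed in the other direction from the clustered histone genes in AP. Of a list of 30 S phase and mitosis genes, 21 of 28 tested were lower in AP after T+E2 and 1 was higher, against 12.9% and 21.6% of all genes. The list summed to 266 ± 9.52 TPM in T+E2 AP and 352 ± 54.9 TPM in untreated AP (SD, n = 4). The mitotic topoisomerase gene Top2a had 2.97 ± 0.705 TPM in T+E2 AP and 18.3 ± 3.12 TPM in untreated AP, and Mki67, whose protein marks dividing cells, 2.43 ± 0.675 TPM and 6.00 ± 1.35 TPM. Pcna, which encodes the sliding clamp of DNA polymerase, had 62.6 ± 6.11 TPM in T+E2 AP and 79.5 ± 11.3 TPM in untreated AP and was also called lower. All 8 markers of proliferating cells were lower in AP. In DLP 3 of 29 tested S phase and mitosis genes were lower and none higher, against 10.7% of all genes called there (4.63% lower and 6.09% higher).

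The genes that make and process histone messages were mostly not called in either lobe. Of 20 such genes, 19 were tested in AP, where Cpsf3, which encodes the endonuclease of messenger RNA cleavage, was higher (0.24 ± 0.07; limma, adjusted p = 0.0238) and Ccne1, which encodes cyclin E1, was lower (-0.73 ± 0.15, adjusted p = 0.00404). In DLP 1 of 20 passed, Slbp, for the stem-loop binding protein, at 20.9 ± 1.27 TPM after T+E2 and 25.4 ± 1.73 TPM in untreated mice (-0.27 ± 0.07, adjusted p = 0.0449). Npat, the activator of clustered histone transcription, Casp8ap2, and Lsm10, Lsm11 and Eri1 of histone messenger RNA processing and decay were not called in any of the 4 hormone comparisons. Among 23 histone chaperones and exchange factors, 5 were lower in AP and 1, Rbbp4, was higher, a share below the 34.5% of all genes called there. The 5 were Asf1b (-1.02 ± 0.23), Cenpa (-0.97 ± 0.29), Chaf1b (-0.54 ± 0.15), Mcm2 (-0.40 ± 0.13) and Hira (-0.30 ± 0.09). Asf1b, which hands new H3 and H4 to the assembly machinery, was also lower in DLP (-0.61 ± 0.13, adjusted p = 0.0138), the only gene of that list called there. Chaf1a, Asf1a, Nasp, Daxx, Atrx and Hjurp of the same list were called in none of the hormone comparisons.

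**Figure D4:**
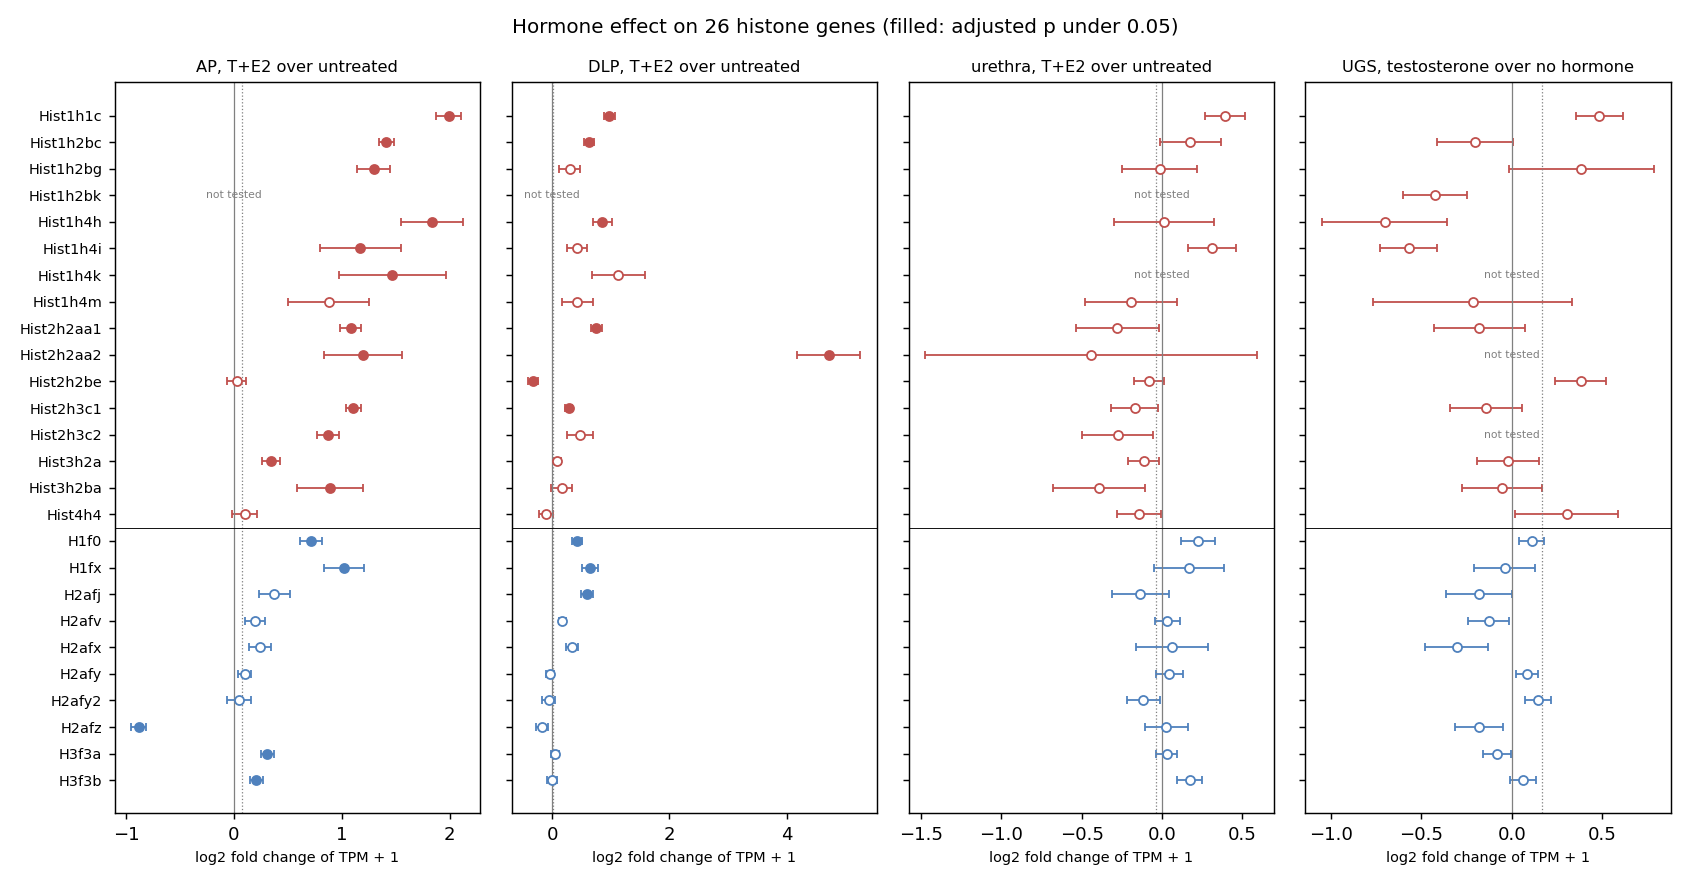
Log2 difference in TPM + 1 (T+E2 minus untreated, or testosterone minus no hormone) of each histone gene in AP, DLP, urethra and UGS, with clustered genes above the line and variants below; bars are SE of limma's fit, filled points have an adjusted p under 0.05, and the dotted line is the median of all genes. Filled points are 17 in AP, 10 in DLP and 0 in urethra and UGS, and the x axes differ between panels.

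In the prostatic urethra no histone gene passed the test among 24 tested, against 0.362% of all genes called in the urethra (0.2% higher and 0.162% lower), and limma without a mean-variance trend also called 0. At an unadjusted p under 0.05 there was 1 of 24, Hist1h1c, compared with 14.7% of all genes. It had 87.8, 109, 122 and 93.5 TPM in T+E2 urethra, against 84.6, 77.8, 62.9 and 86.9 TPM in untreated urethra. The T+E2 libraries all lay above the untreated ones, which was the case for no other histone gene in the urethra, with 8.1% of all genes not overlapping, and the difference was 0.39 ± 0.13 (limma, adjusted p = 0.203). The clustered sum was 379 ± 93.4 TPM after T+E2 and 347 ± 30.8 TPM in untreated urethra. T+E2 library 1 was the low one, at 240 TPM against 416 to 436 TPM in the other 3, and without it the mean was 426 ± 9.96 TPM.

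In cultured UGS, testosterone also gave no called histone gene among 23 tested, against 1.73% of all genes called in the UGS (1.43% higher and 0.301% lower), and limma without the trend called 0. At an unadjusted p under 0.05 there were 4 of 23, compared with 32.1% of all genes. Hist1h1c had 18.3, 23.2, 25.2 and 26.1 TPM with testosterone, against 16.2, 14.5, 17.8 and 16.2 TPM without hormone. The groups did not overlap, and the difference was 0.48 ± 0.13 (limma, adjusted p = 0.103), or 0.31 relative to the median of all genes, which was 0.17. Hist1h4i had 8.38, 8.39, 5.31 and 7.57 TPM with testosterone, against 12.4, 10.8, 10.4 and 11.8 TPM without hormone (-0.57 ± 0.16, adjusted p = 0.105). These were the 2 histone genes whose groups did not overlap, compared with 10.8% of all genes. Without testosterone library H both genes passed, at adjusted p of 0.0389 and 0.0306, in a fit that called 4536 of all genes, against 230 with every library. The remaining 2 were Hist2h2be (0.38) and Hist1h2bk (-0.42). The clustered sum was 132 ± 22.1 TPM with testosterone and 133 ± 9.85 TPM without hormone, and the variant sum 4914 ± 196 and 5058 ± 206 TPM.

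Whether the response to T+E2 itself differed between tissues was tested in the 24 adult libraries together. The AP response exceeded that of DLP in 5 histone genes and was below it in 1, against 10.5% of all genes called (7.18% higher and 3.27% lower). The differences, AP minus DLP, were 1.02 ± 0.17 for Hist1h1c (limma, adjusted p = 0.000364), 0.78 ± 0.20 for Hist1h2bc (adjusted p = 0.0129), 1.00 ± 0.30 for Hist1h2bg, 0.83 ± 0.14 for Hist2h3c1 (adjusted p = 0.000501), 0.26 ± 0.08 for H3f3a (adjusted p = 0.0282) and -0.71 ± 0.16 for H2afz (adjusted p = 0.00605). Hist1h2bg may have a row only through T+E2 AP, so its difference is described and not a test. Without the 5 AP and DLP libraries rich in seminal vesicle or skeletal muscle transcripts, Hist1h1c, Hist2h3c1 and H2afz still passed, and the other 3 had adjusted p of 0.0624, 0.0658 and 0.0741. The response of the Hist2h2aa pair, summed, was not shown to differ between the lobes (0.06 ± 0.33, adjusted p = 0.948).

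Against the urethra, the AP response was higher in 12 histone genes and lower in 1, with 24.4% of all genes called (17.4% higher and 7.06% lower). The largest differences were those of Hist1h4h (1.83 ± 0.43), Hist1h1c (1.60 ± 0.17), Hist2h2aa1 (1.36 ± 0.27) and Hist1h2bg (1.31 ± 0.30), and H2afz was lower (-0.91 ± 0.16). That of Hist1h2bg is again described and not a test. The median of all genes was 0.12 in this comparison, and scaling by the median of gene ratios moved it by -0.13, leaving 9 histone genes higher and 1 lower. The DLP response exceeded that of the urethra in 2, Hist2h2aa1 (1.03 ± 0.27; limma, adjusted p = 0.0320) and Hist2h2aa2 (5.15 ± 1.16, adjusted p = 0.0114), against 3.64% of all genes called (2.46% higher and 1.17% lower), and the summed pair differed by 1.32 ± 0.33 (adjusted p = 0.0267). The Hist2h2aa1 call was lost in 8 of 16 fits leaving out 1 library (adjusted p of up to 0.0666), namely T+E2 DLP library 18 or 1, untreated DLP library 7, 8 or 9, or untreated urethra library 10, 7 or 8, and the count of calls lay between 1 and 5, the 5 being without T+E2 urethra library 3. Without the 5 AP and DLP libraries rich in other tissue neither copy passed (adjusted p = 0.0968 for Hist2h2aa1 and 0.0741 for Hist2h2aa2).

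Without hormone the adult tissues already differed in histone transcripts. In the untreated libraries, the clustered sum was 468 ± 17.1 TPM in AP, 400 ± 34.9 TPM in DLP and 347 ± 30.8 TPM in urethra, and the variant sum 1866 ± 51.6, 1619 ± 128 and 1406 ± 35.5 TPM (SD, n = 4 each). AP was higher than DLP in 11 of 25 tested histone genes and lower in 2, against 59.6% of all genes called (36.1% higher and 23.5% lower). AP was higher than urethra in 11 and lower in 5, against 74.9% of all genes (41.4% higher and 33.4% lower), and DLP was higher than urethra in 12 and lower in 4, against 63.3% (33.8% higher and 29.5% lower). The histone genes called were thus 13, 16 and 16 of 25, shares close to or below those of all genes.

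Several members kept one order in all 3 pairs of untreated tissues. H2afx, whose protein is phosphorylated at DNA breaks, had 31.1 ± 3.79 TPM in AP, 15.9 ± 2.09 TPM in DLP and 9.62 ± 0.640 TPM in urethra (AP minus DLP 0.93 ± 0.10; limma, adjusted p = 7.17e-06). H2afz had 519 ± 17.8 TPM in AP, 407 ± 56.3 TPM in DLP and 194 ± 24.9 TPM in urethra, and Hist2h3c1 20.9 ± 1.75, 15.4 ± 0.621 and 7.52 ± 1.47 TPM in the same tissues. These steps passed on the deposited scale, but under quantile scaling H2afz was not called between AP and DLP (0.07, adjusted p = 0.475). Hist1h4h ran the other way, at 2.42 ± 1.21 TPM in AP, 5.36 ± 1.29 TPM in DLP and 13.5 ± 3.07 TPM in urethra (AP minus DLP -0.96 ± 0.26, adjusted p = 0.00599, and 0.0818 under quantile scaling). Hist1h2bc, at 112 ± 9.04, 120 ± 11.9 and 100 ± 8.06 TPM, did not differ beyond its spread between AP and DLP (adjusted p = 0.328) or AP and urethra (adjusted p = 0.103).

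How reads were divided between copies reached these comparisons too. Hist2h2aa2 alone was lower in untreated DLP than in urethra (-2.88 ± 0.59; limma, adjusted p = 0.000829), whereas the summed pair was higher in DLP (0.35 ± 0.09, adjusted p = 0.00471).

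The widest contrast between clustered genes and variants was that of the embryonic UGS cultured without hormone with the mean of the 3 untreated adult tissues. Age, culture and tissue all differ between these groups and cannot be told apart. Among variants 9 of 10 were higher in UGS, and among clustered genes 4 were higher and 10 lower of 16, against 89% of all genes called (67.4% higher and 21.6% lower). The 4 include Hist3h2ba and Hist1h2bk, which may have a row only through their level in UGS. The clustered sum was 133 ± 9.85 TPM in UGS, against 347 to 468 TPM on average in the adult tissues, and the variant sum 5058 ± 206 TPM, against 1406 to 1866 TPM. The ratio of the clustered sum to the variant sum was 0.0263 in UGS and 0.247 to 0.251 in the adult tissues. These sums hold only 16 of 67 clustered and 10 of 15 variant protein-coding genes of the annotation. Messages without a poly(A) tail may also be missing from them. The ratio therefore does not measure all clustered against all variant transcripts. The median of all genes was 0.66 in this comparison, and scaling by the median of gene ratios moved it by -0.68. Under that scaling 12 histone genes were higher and 12 lower, against 13 and 11 on the deposited scale.

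**Figure D5:**
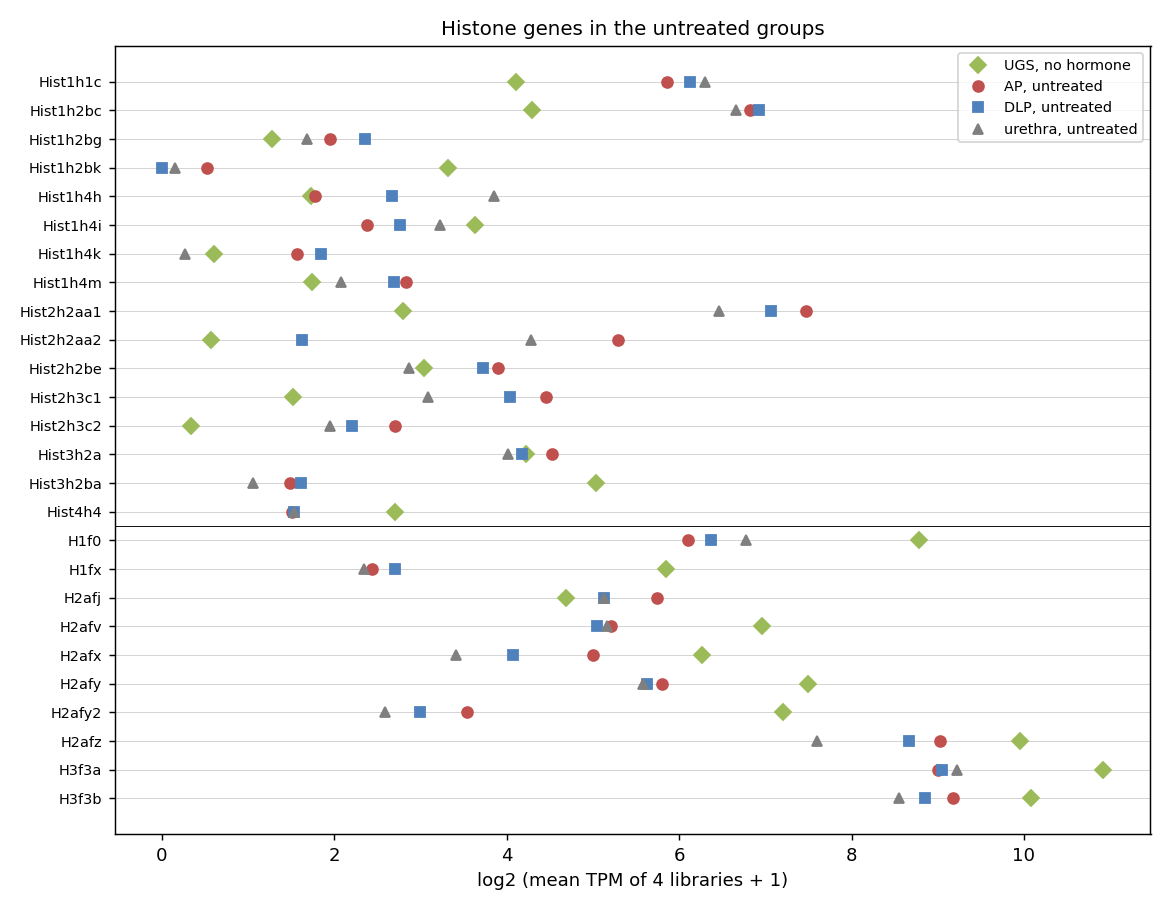
Mean level, as log2 of (TPM + 1), of the 26 histone genes in UGS cultured without hormone and in untreated AP, DLP and urethra (n = 4 libraries each). H2afy2, H1fx, Hist3h2ba and Hist1h2bk stood highest in UGS relative to the adult tissues, and Hist2h2aa1 and Hist2h2aa2 lowest. Hist3h2ba and Hist1h2bk may have a row only through UGS.

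The macroH2A gene H2afy2, whose product is associated with silent chromatin, had 146 ± 9.56 TPM in UGS, against 10.6 ± 1.20 TPM in AP, 6.99 ± 0.950 TPM in DLP and 5.01 ± 0.439 TPM in urethra (4.17 ± 0.08; limma, adjusted p = 7.85e-17), or 3.51 relative to the median of all genes. H1fx had 56.8 ± 6.91 TPM in UGS and 4.09 to 5.50 TPM on average in the adult tissues (3.36 ± 0.12). H3f3a, the highest member, had 1940 ± 131 TPM in UGS and 514 to 597 TPM in the adult tissues. H2afj was the single variant that was lower in UGS (-0.66 ± 0.09), and relative to the median of all genes the other 9 differed by 0.57 or more.

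The 3 clustered genes that led the adult sum were lower in UGS. Hist2h2aa1 had 5.94 ± 1.13 TPM in UGS, against 177 ± 8.21 TPM in AP, 133 ± 18.9 TPM in DLP and 87.4 ± 5.05 TPM in urethra (-4.22 ± 0.09; limma, adjusted p = 1.37e-16), and Hist1h2bc had 18.7 ± 3.93 TPM in UGS and 100 to 120 TPM on average in the adult tissues (-2.52 ± 0.09). Hist1h1c differed in the same direction by -1.99, as did Hist2h3c1 (-2.34) and Hist2h3c2 (-1.94). Hist3h2a, at 17.7 ± 2.68 TPM in UGS, against 21.98 ± 1.38 TPM in AP, 17.0 ± 0.763 TPM in DLP and 15.1 ± 1.15 TPM in urethra, did not pass (adjusted p = 0.834). Hist1h1c, Hist1h2bc and Hist2h2aa1 together made up 30.8% ± 2.50 of the clustered sum in UGS.

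Of the 4 clustered genes that were higher in UGS, Hist3h2ba and Hist1h2bk were low in the untreated adult tissues. Every gene in the table had a mean of at least 4.998 TPM in 1 or more of the 8 groups. A gene this low in adult tissue may thus have a row only through UGS, so its higher level there is described and not a test. The H2B gene Hist3h2ba had 31.7 ± 8.07 TPM in UGS and 1.09 to 2.06 TPM on average in the adult tissues, a difference of 3.65. Hist1h2bk, another H2B gene, had 8.99 ± 1.22 TPM in UGS and at most 2.34 TPM in any adult library. The H4 gene Hist4h4 was also higher in UGS (1.15 ± 0.14), as was Hist1h4i (0.90 ± 0.25), whose difference relative to the median of all genes was 0.25 and did not pass under other scalings. All 30 S phase and mitosis genes were higher in UGS than in the adult tissues, with a median difference of 2.82, while 10 of 16 clustered histone genes were lower.

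Read overlap limits further members. Hist3h2a shares transcribed bases on the same strand with Trim17, and Hist2h2aa1 and Hist2h3c1 with the annotated transcript Gm20634. H1fx and H2afy2 lie opposite Gm5577 and Aifm2, and because it is not given whether counting used the strand, reads from either strand may enter their values. H3f3a shares 92.8% of its coding windows with other annotated genes, H3f3c first among them. By contrast, H1f0, H1fx, H2afv, H2afy and Hist2h2be shared no window with any other annotated gene. Hist4h4 shared no coding window, but 7.07% of the windows of its whole transcript.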

How the data were processed

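RNA was measured in 32 libraries of mouse AP, DLP, prostatic urethra and cultured UGS, 4 per group. The values are TPM per gene as deposited by the authors. The submitters' processing notes name STAR, RSEM, edgeR, FastQC and the mm9 build, without roles, and whether counting used the strand is not given in the sources used here. TPM keeps no depth, so no count test or counting interval was possible. Depth is unknown.

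Values were tested as log2(TPM + 1) with limma 3.58.1 (trend, R 4.3.3) on genes at 1 TPM or more in at least 4 libraries, with Benjamini-Hochberg adjustment over all genes tested. Each hormone effect was fitted within its tissue (4 against 4). Untreated tissues, UGS against adults and differences of effects were fitted over 12, 16 and 24 libraries. The fitting step was tested on simulated data. Sequence was read with Python 3.11.15 from GRCm38 tables, a later build than mm9, so sequence was not matched to the values by position. GENCODE transcripts were matched by gene symbol, and by RefSeq accession where one was found. Promoters were matched by RefSeq accession. Sums are of TPM. All 26 histone genes are accounted for. Values are given for those called in a hormone comparison (at most the 8 largest changes in each direction, and others of note), for the 3 highest of each histone type, for copies that moved differently, and for preset genes of the other lists. Alternatives covered scaling, pseudocount, filter, trend, a replicate block, summed copies and leaving out libraries. The members and lists were chosen with earlier results of these data known.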

Additional observations from a re-analysis of the deposited data

Results flagged for a closer look

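In 7 of 210 groups of 4 libraries, 1 library stood apart from the other 3 by Dixon's criterion, which chance meets in about 1 of 20. Hist1h1c was at 156 TPM in T+E2 DLP library 18, with the nearest at 130 TPM. H2afy2 was at 7.72 TPM in T+E2 DLP library 1, with the nearest at 6.31 TPM, and Hist1h4m at 4.86 TPM in T+E2 DLP library 24, with the nearest at 8.08 TPM. H3f3b was at 644 TPM in T+E2 AP library 17, with the nearest at 670.2 TPM. The clustered sum was 240 TPM in T+E2 urethra library 1, with the nearest at 416 TPM. In UGS without hormone, H2afy was at 172 TPM in library C, with the nearest at 181 TPM, and Hist3h2a at 21.7 TPM in library D, with the nearest at 16.7 TPM.

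The T+E2 response differed between tissues, by limma's test of the difference, in 21 cases. AP minus DLP it was 1.02 for Hist1h1c, 0.78 for Hist1h2bc, 1.00 for Hist1h2bg, 0.83 for Hist2h3c1, 0.26 for H3f3a and -0.71 for H2afz. AP minus urethra it was 1.60 for Hist1h1c, 1.24 for Hist1h2bc, 1.31 for Hist1h2bg, 1.83 for Hist1h4h, 1.36 for Hist2h2aa1, 1.28 for Hist2h3c1, 1.15 for Hist2h3c2, 0.46 for Hist3h2a, 1.28 for Hist3h2ba, 0.49 for H1f0, 0.85 for H1fx, 0.28 for H3f3a and -0.91 for H2afz. DLP minus urethra it was 1.03 for Hist2h2aa1 and 5.15 for Hist2h2aa2, for which the division of reads between near-identical copies is uncertain. These comparisons share libraries. Hist1h2bg may have a row only through T+E2 AP, so its differences are described and not tests.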

How the results depend on the processing

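Leaving out each library in turn gave 13 to 16 called histone genes in AP, 8 to 10 in DLP, 0 to 0 in urethra and 0 to 2 in UGS. It gave 11 to 14 for untreated AP against DLP, 16 to 19 for AP against urethra, 12 to 15 for DLP against urethra and 23 to 24 for UGS against adults. For the differences of response it gave 4 to 8 for AP minus DLP, 11 to 14 for AP minus urethra and 1 to 5 for DLP minus urethra. Without T+E2 DLP libraries 18 and 24 the count in DLP was 6. Without 5 AP and DLP libraries, an alternative chosen after seeing the data, it was 3 for AP minus DLP and 0 for DLP minus urethra; the cause was not tested beyond the smaller number of libraries. Under quantile scaling 4 histone genes passed for DLP minus urethra, and H3f3a in untreated DLP against urethra was 0.0746, against -0.18 on the deposited scale; the cause was not tested. Same-numbered libraries correlated at -0.159 to 0.213 in adults and at 0.12 and 0.639 for the 2 letters shared in UGS, and the labels tie none, so they were not taken as pairs. With the replicate block, 5 histone genes passed in UGS, against 0 without it, while 5681 of all 13304 genes tested passed, against 230, and the counts for AP minus DLP, AP minus urethra and DLP minus urethra were 8, 13 and 3. The other counts stayed within 1.5 times of those reported. Depth cannot be judged from TPM, and genes near 1 TPM such as Hist1h4k and Hist1h2bk are the least certain.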
